A study of Mus musculus with 16 samples.

Results

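The genes described here are the neighbours of Atm on mouse chromosome 9, taken from 43.5 to 63.5 Mb, which is 10 Mb to either side of Atm at 53.4 Mb (GRCm38). A gene belonged to them when the accession of an array probe placed its start in that window. Of 273 such genes, Atm itself and 12 others (Il18, Sdhd, H2afx, Ift46, Nrg4, Il10ra, Tmem25, Fxyd6, Pts, Nxpe4, Zc3h12c and Lrrc49) were set apart, which left 260 of the 22911 genes named on the array. Those 12 were chosen partly for their genotype change, so counts of the neighbours below are counts after their removal, unless they are said to be included. Shares over all probes or all named genes include them and Atm. Of the 260 genes, 223 are protein-coding, 33 lncRNA genes and 4 pseudogenes, and 125 lie below Atm in coordinate and 135 above it. At least 1 probe of 198 of them was well above background on all 4 arrays of a group and was kept, and the other 62 genes have no value here. RNA of cerebellar cortex was measured in 4 groups of 4 mice each. Wild-type (WT) and Atm-/- littermates of the strain B6;129S4-Atmtm1Bal/J received plain water (veh) or nicotinamide riboside (NR), a precursor of NAD+, at 12 mM (3.5 mg/ml) in what they drank from 6 weeks of age for 2 months, and were 3.5 months old. The comparison asked how far the genotype change of these genes depended on their distance from Atm, without NR and with it, in mice of separate treatment groups.

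Atm encodes a kinase of the DNA damage response, and its loss in humans causes ataxia telangiectasia, with degeneration of the cerebellum. A targeted allele made in embryonic stem cells of one strain and kept on another carries with it the DNA of the first strain on both sides of the target, until recombination separates them, so that mutant mice and wild-type littermates can differ in the sequence of neighbouring genes as well as in the targeted gene. The neighbours of Atm are otherwise a mixed set, with genes for mitochondrial enzymes, nicotinic receptor subunits, adhesion molecules, apolipoproteins, ubiquitin ligases and chaperones.

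The 16 arrays held between 34945 and 42559 probes well above background. Each genotype had a slide of its own, with vehicle and NR in separate rows, so that neither genotype and slide nor treatment and row can be told apart. All listed markers of Purkinje cells, granule cells and astrocytes were detected on all arrays. Of 4 measured choroid plexus markers, Ttr, Folr1 and Clic6 were highest of all arrays on WT veh 4, where Ttr read 18.05 against 8.33 to 12.33 on the other WT veh arrays, while Otx2 was higher on WT veh 1 (13.03) than there (12.56). The labels give all mice as male, but Y-linked genes gave no signal on 4 arrays, which are 1 and 4 of WT NR, 3 of Atm-/- veh and 4 of Atm-/- NR. The dimmer of both Atm probes was lower on every Atm-/- array than on every WT array, with a log2 change of -0.82 over both treatments (limma adjusted p = 7.2e-06), and the brighter had -0.23 (limma adjusted p = 0.253).

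The promoters of 5 of these genes carry the account that follows and are given here from RefSeq (GRCm38.p6), 250 bases before to 50 bases after the start of transcription. Npat is shown because the annotated gene starts 61 bases past the end of Atm, so that the window shown also holds the stretch between both genes. Bco2, Gm32819 and 2310030G06Rik had the largest genotype changes with an entry in the table, which has none for Cryab or Poglut3. Dnaja4 is shown for its heat shock motif. Npat and Dnaja4 were chosen after their values were seen. For Gm32819 and 2310030G06Rik the start is the outer end of the annotated gene, while for Npat and Bco2 it lies inside the gene. For Dnaja4 it is the start that holds the motif. They lie at chr9:53536797-53537096, plus strand (Npat), chr9:50555089-50555388, minus strand (Bco2), chr9:50746478-50746777, minus strand (2310030G06Rik), chr9:51267207-51267506, plus strand (Gm32819) and chr9:54699309-54699608, plus strand (Dnaja4). Capitals mark matches on either strand to GAANNTTC (heat shock element core), CCAAT (the core of CCAAT boxes), GGGCGG (GC box), TATAAA (the core of TATA boxes), TTTGGCGC (E2F site) and CCGGAAG (ETS core), and matches to different motifs may overlap.
Npat: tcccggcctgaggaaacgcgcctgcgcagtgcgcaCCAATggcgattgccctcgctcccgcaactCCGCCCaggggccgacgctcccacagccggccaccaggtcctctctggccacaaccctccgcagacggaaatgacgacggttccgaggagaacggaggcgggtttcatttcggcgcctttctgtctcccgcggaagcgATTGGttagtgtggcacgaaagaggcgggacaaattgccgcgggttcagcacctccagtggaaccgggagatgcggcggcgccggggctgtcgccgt
Bco2: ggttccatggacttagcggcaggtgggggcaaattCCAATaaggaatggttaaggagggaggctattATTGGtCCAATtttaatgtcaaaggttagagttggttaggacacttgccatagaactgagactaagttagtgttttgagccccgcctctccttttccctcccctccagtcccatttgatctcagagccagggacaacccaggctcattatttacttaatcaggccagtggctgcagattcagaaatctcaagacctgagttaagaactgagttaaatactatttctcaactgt
2310030G06Rik: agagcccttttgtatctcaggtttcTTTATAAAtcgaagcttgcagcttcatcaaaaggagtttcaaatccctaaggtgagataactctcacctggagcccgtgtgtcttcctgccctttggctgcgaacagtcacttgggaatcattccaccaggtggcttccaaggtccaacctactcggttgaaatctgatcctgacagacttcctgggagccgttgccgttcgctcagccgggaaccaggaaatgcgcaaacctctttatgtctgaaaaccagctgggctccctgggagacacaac
Gm32819: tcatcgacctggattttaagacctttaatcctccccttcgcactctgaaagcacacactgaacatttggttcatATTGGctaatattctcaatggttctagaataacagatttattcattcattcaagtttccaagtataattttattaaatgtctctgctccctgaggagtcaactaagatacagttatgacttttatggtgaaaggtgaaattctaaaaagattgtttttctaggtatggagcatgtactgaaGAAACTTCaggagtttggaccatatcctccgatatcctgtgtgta
Dnaja4: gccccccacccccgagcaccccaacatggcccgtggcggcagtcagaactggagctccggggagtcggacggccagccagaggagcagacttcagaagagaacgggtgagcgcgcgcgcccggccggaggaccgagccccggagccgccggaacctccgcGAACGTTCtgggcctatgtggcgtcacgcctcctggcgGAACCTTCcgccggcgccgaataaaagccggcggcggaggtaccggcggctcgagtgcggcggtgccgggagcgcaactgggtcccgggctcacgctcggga

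The Npat promoter, with 66.7% G and C, holds 2 CCAAT boxes and 1 GC box, and the Bco2 promoter, with 45.0%, holds 3 CCAAT boxes. The Dnaja4 promoter holds 2 matches to the heat shock core and the Gm32819 promoter 1. The table lists 253 promoters of 206 of the 260 genes. The heat shock core is in 8.30% of them and in 7.86% of all 32851 promoters of the table, the CCAAT box in 36.4% and 37.4%, the GC box in 48.6% and 35.7%, the TATA box in 10.3% and 13.6%, the E2F site in 0.395% and 0.514%, and the ETS core in 10.3% and 8.86%. A match describes the letters in these windows and no more.

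Called genotype changes took a larger share of the probes near Atm than of all probes, and went in both directions. With limma over all 37253 kept probes, and called at an adjusted p under 0.05, 3 of their 285 kept probes fell in Atm-/- veh against WT veh, 1.05% against a background of 0.0537% of all probes. The 3 genes were Dnaja4, Cd276 and 9230112J17Rik. In Atm-/- NR against WT NR, 4 of 285 probes (1.40%, background 0.0537%) were called: Ppcdc rose, and Bco2, Cryab and 9230112J17Rik fell. Over both treatments, which sets 8 arrays against 8, 18 probes of 18 genes passed (6.32%, background 0.201%), of which 6 rose and 12 fell. At an unadjusted p under 0.05 it was 98 probes (34.4%), against 12.9% of all probes. The difference between these shares was not tested, and neighbouring genes are not independent of each other. Of all 75 probes called over both treatments, 18 belonged to these genes, 14 to the genes set apart, 28 had no name, and 14 lay on other chromosomes. The remaining 1 was 1700063D05Rik, 12.2 Mb below Atm, with a log2 change of -1.35 ± 0.16 (SE, limma adjusted p = 0.00118). That gene is named after its values were seen.

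Single arrays moved the smaller counts. Leaving out WT veh 1 raised the count under vehicle from 3 to 8 and leaving out Atm-/- veh 2 raised it to 5, while it was 1 without WT veh 3, without WT veh 4 (the array high in Ttr), without Atm-/- veh 3 or without Atm-/- veh 4. Under NR, the count of 4 was 1 without WT veh 2 or 3, WT NR 1 or 3, or Atm-/- NR 2, 3 or 4, and 2 without WT NR 2 or 4, Atm-/- veh 1 or 4, or Atm-/- NR 1.

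Genes whose arrays did not overlap were counted next, each gene read from its brightest kept probe. Under vehicle, 33 of 198 genes (16.7%) had all 4 Atm-/- arrays above or all below the 4 WT arrays, against 8.74% of all 16737 genes. Under NR it was 41 genes (20.7%, background 4.53%). In 17 genes (8.59%, background 0.58%) this held in both treatments and in the same direction, with 7 higher and 10 lower in Atm-/-. In 11 of them (5.56%, background 0.281%) all 8 Atm-/- arrays stood apart from all 8 WT arrays. No probe of these genes had arrays apart in opposite directions under vehicle and NR. Fewer cells of a type and less RNA per cell cannot be told apart in these tissue samples. Whether the probes match the sequence of both genotypes equally was not tested, so a rise or fall here is one of probe signal.

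**Figure D1:**
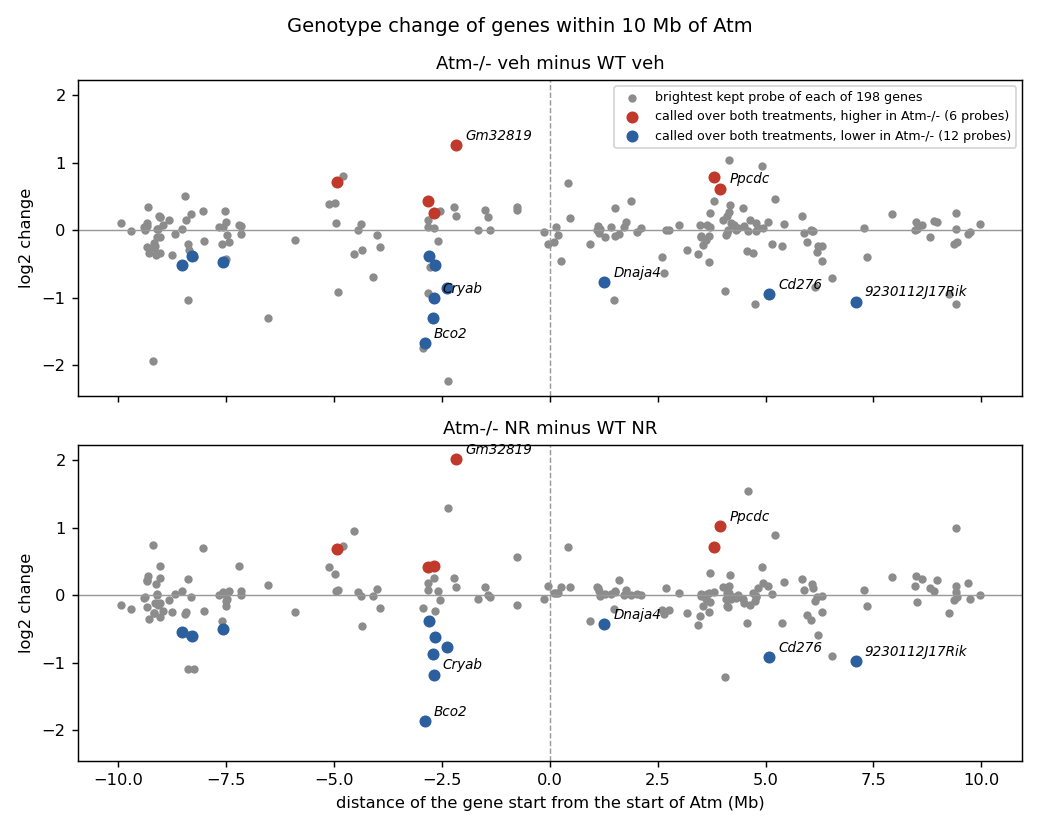
Log2 genotype change (vertical axis, Atm-/- minus WT) against the distance of the gene start from the start of Atm in Mb (horizontal axis), under vehicle (top) and NR (bottom). Grey points are the brightest kept probes of 198 genes, and coloured points the 18 probes called over both treatments. Called genes crowd between 2 and 3 Mb below Atm, and 1 called gene, Dnaja4, lies within 2 Mb. The genes set apart are not drawn.

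In the genes that were not set apart, the size of the change did not fall steadily with distance from Atm. Over both treatments, its median was 0.146 on the log2 scale in the 198 genes, against 0.0918 in all named genes. It was smallest in the 29 genes within 2 Mb of Atm (0.0849), largest in the 79 genes at 2 to 5 Mb (0.191) and 0.153 in the 90 genes at 5 to 10 Mb. The 157 genes at 10 to 20 Mb (0.0913), the 575 genes of the rest of chromosome 9 (0.0897) and the 15794 genes of other chromosomes (0.0916) lay close to each other. Across the 198 genes, size and distance had a Pearson r of -0.10 and a Spearman rho of -0.03 over both treatments. The same pair of values was -0.09 and -0.06 under vehicle and -0.02 and 0.08 under NR. These describe genes of the same 16 arrays, which are no replicates of each other. The profile by distance was not recomputed with the genes set apart, so it describes the remaining genes only.

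The higher median at 2 to 5 Mb came from the side below Atm. Below Atm, the 32 genes at 2 to 5 Mb had a median size of 0.392 under vehicle, 0.287 under NR and 0.359 over both treatments, and 9 of them (28.1%, against 0.221% of all named genes) were called over both on their brightest probe. Above Atm, the 47 genes at that distance had medians of 0.109, 0.108 and 0.111, with 2 called (4.26%). The median below Atm stayed between 0.279 (normexp background correction) and 0.354 (only probes detected on all 16 arrays) under other scalings and filters, and that within 2 Mb between 0.0632 and 0.0902.

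**Figure D2:**
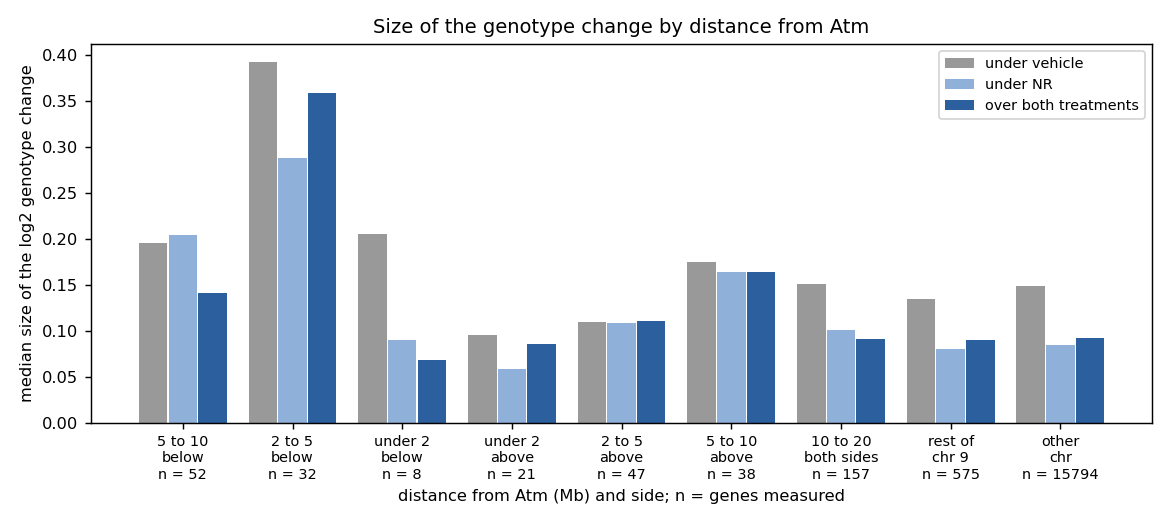
Median size of the log2 genotype change (bars from 0) in genes grouped by distance from Atm in Mb and by side, under vehicle, under NR and over both treatments, with the number of genes under each group. The tallest bars are those of the 32 genes 2 to 5 Mb below Atm, while the 29 genes within 2 Mb on both sides have medians over both treatments under 0.0918, the median of all named genes.

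Among the genes that were not set apart, none of the 10 measured ones nearest to Atm, 5 on each side, passed the test. Npat, a coactivator of histone gene transcription, shares its promoter region with Atm, and its log2 signal was 9.96, 10.12, 10.21 and 9.90 in WT veh and 9.80, 9.96, 9.81 and 9.90 in Atm-/- veh. In the NR groups it was 9.99, 10.09, 10.17 and 10.11 in WT NR and 10.23, 10.24, 9.92 and 10.08 in Atm-/- NR. The groups overlapped in both treatments, and the log2 change over both was -0.07 ± 0.06 (SE, limma adjusted p = 0.648). Poglut3, an O-glucosyltransferase that starts 0.05 Mb below Atm, read 7.81, 7.82, 7.89 and 7.90 in WT veh and 7.49, 7.72, 7.63 and 7.76 in Atm-/- veh. Every Atm-/- veh array was below every WT veh array, with a change of -0.21 ± 0.12 (limma adjusted p = 0.434), but under NR the change was 0.14 ± 0.12 and over both -0.03 ± 0.08 (SE, limma adjusted p = 0.888). Acat1, a mitochondrial thiolase, changed by 0.04 ± 0.06, Cul5, a scaffold of ubiquitin ligases, by -0.01 ± 0.05, and Rdx, which links actin to the membrane, by -0.01 ± 0.06 over both treatments. Exph5 (-0.04 ± 0.18), Gm1715 (0.10 ± 0.13) and the small GTPase gene Rab39 (-0.17 ± 0.19) did not pass the test either. AI593442 had 0.43 ± 0.15 (limma adjusted p = 0.253). Sln, which encodes sarcolipin, an inhibitor of the calcium pump of the reticulum, had the widest spread among the 10 nearest genes, from 8.04 to 12.76 in WT veh alone, and 0.71 ± 0.59 (limma adjusted p = 0.634).

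The densest run of calls lay 2 to 3 Mb below Atm, where the measured genes span 50494525 to 51300482 on chromosome 9. This stretch was chosen after the values were seen. Of 24 genes there, 20 were measured with 26 probes, and 9 probes of 9 genes (34.6%) were called over both treatments, 3 higher and 6 lower. In the rest of the window, 9 of 259 probes (3.47%) were called. Another 3 genes of the stretch are among those set apart. Bco2 (chr9:50533087-50555214), a mitochondrial enzyme that cleaves carotenoids, had the largest change. Its log2 signal was 6.48, 7.39, 7.34 and 8.02 in WT veh and 6.09, 5.84, 5.26 and 5.33 in Atm-/- veh. With NR the values were 7.27, 7.17, 7.55 and 7.02 in WT NR and 5.66, 5.19, 5.64 and 5.04 in Atm-/- NR. All 8 Atm-/- arrays were below all 8 WT arrays, with a log2 change of -1.77 ± 0.20 over both treatments (SE, limma adjusted p = 0.000766). Only 2 of the 4 Atm-/- NR arrays had this dim probe well above background, and with normexp background correction its change was -0.93 (limma adjusted p = 0.00411).

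Cryab (chr9:50745951-50756636) encodes alpha-B crystallin, a small heat shock protein made in glia. It read 14.46, 14.37, 14.04 and 14.58 in WT veh and 13.64, 13.47, 12.86 and 13.47 in Atm-/- veh. With NR it read 14.46, 14.26, 14.43 and 15.13 in WT NR and 13.43, 13.40, 13.30 and 13.44 in Atm-/- NR. Again no Atm-/- array reached the lowest WT array, and the change over both treatments was -1.09 ± 0.14 (SE, limma adjusted p = 0.00204), a 2.13-fold lower signal. Since oligodendrocytes make Cryab, 3 of their markers (Mbp, Mog and Mobp) are set beside it. Their median log2 change was -0.23 over both treatments, with 0 of 3 called by limma and 0 at an unadjusted p under 0.05. The median was -0.03 under vehicle and -0.40 under NR, where 0 were called by limma and 1 had an unadjusted p under 0.05. The mean of their log2 signals overlapped between genotypes under vehicle (11.95 to 13.09 in WT, 12.40 to 12.86 in Atm-/-) but not under NR (12.83 to 13.71 in WT, 12.44 to 12.78 in Atm-/-). Their part in the change of Cryab was not tested. Hspb2, its neighbour and another small heat shock protein gene, had 0.14 ± 0.09 (limma adjusted p = 0.511).

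The gene 2310030G06Rik, which overlaps the start of Cryab in the annotation, read 8.32, 9.40, 9.33 and 9.19 in WT veh and 7.57, 8.10, 7.58 and 7.80 in Atm-/- veh. Under NR its values were 9.39, 9.31, 9.51 and 9.03 in WT NR and 8.28, 8.40, 8.84 and 8.27 in Atm-/- NR. The genotypes were apart within each treatment, but the highest Atm-/- NR array (8.84) passed the lowest WT veh array (8.32). Its change was -1.30 ± 0.22 under vehicle and -0.86 ± 0.22 under NR, and -1.08 ± 0.16 (SE, limma adjusted p = 0.00719) over both. Alg9, a mannosyltransferase of protein N-glycosylation, ranged over 10.09 to 10.54 in WT veh, 9.69 to 9.89 in Atm-/- veh, 10.04 to 10.47 in WT NR and 9.54 to 9.73 in Atm-/- NR, with a change of -0.57 ± 0.07 (SE, limma adjusted p = 0.00336). Layn, which encodes the hyaluronan receptor layilin, was dimmer, at 6.81 to 7.19 in WT veh, 5.59 to 6.35 in Atm-/- veh, 6.80 to 7.30 in WT NR and 6.12 to 6.50 in Atm-/- NR, and changed by -0.81 ± 0.12 (SE, limma adjusted p = 0.00707), or by -0.42 with normexp background correction (limma adjusted p = 0.0172). For both genes all Atm-/- arrays lay below all WT arrays.

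Smaller changes passed the test in 3 more genes of the stretch. Dlat, the acetyltransferase subunit of the pyruvate dehydrogenase complex, had -0.38 ± 0.07 (SE, limma adjusted p = 0.0357) on its brightest probe, with the groups apart, but 0.00 ± 0.08 on its other probe, and its call was lost in 14 of 23 other settings. Nkapd1 rose by 0.42 ± 0.06 (limma adjusted p = 0.00717) on a probe that is not its brightest. Its other 2 probes had changes of 0.17 and 0.29 that did not pass. The gene 1110032A03Rik rose by 0.35 ± 0.06 (limma adjusted p = 0.0332), with 1 WT veh array (12.59) inside the range of the Atm-/- veh arrays, and lost its call in 16 of 23 settings.

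The lncRNA gene Gm32819 (chr9:51267457-51300482) had the largest rise. It read 9.51, 8.07, 8.34 and 8.27 in WT veh and 10.08, 10.61, 8.45 and 10.10 in Atm-/- veh. The NR groups read 8.14, 8.30, 8.32 and 7.90 in WT NR and 10.38, 9.39, 10.34 and 10.61 in Atm-/- NR. Under vehicle the groups overlapped, since WT veh 1 was high and Atm-/- veh 3 low, while under NR every Atm-/- array was above every WT array. The change over both treatments was 1.64 ± 0.30 (SE, limma adjusted p = 0.0457), 3.11-fold higher, and the call was lost in 16 of 23 other settings. Other genes of the stretch did not pass: Timm8b, a chaperone of mitochondrial import, had 0.07 ± 0.05, Ppp2r1b, a scaffold of protein phosphatase 2A, -0.05 ± 0.09, and Colca2 0.17 ± 0.16. Dixdc1 (-0.45 ± 0.12), Fdxacb1 (-0.39 ± 0.09) and Plet1 (-0.97 ± 0.26) had larger changes with limma adjusted p of 0.165, 0.128 and 0.16.

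**Figure D3:**
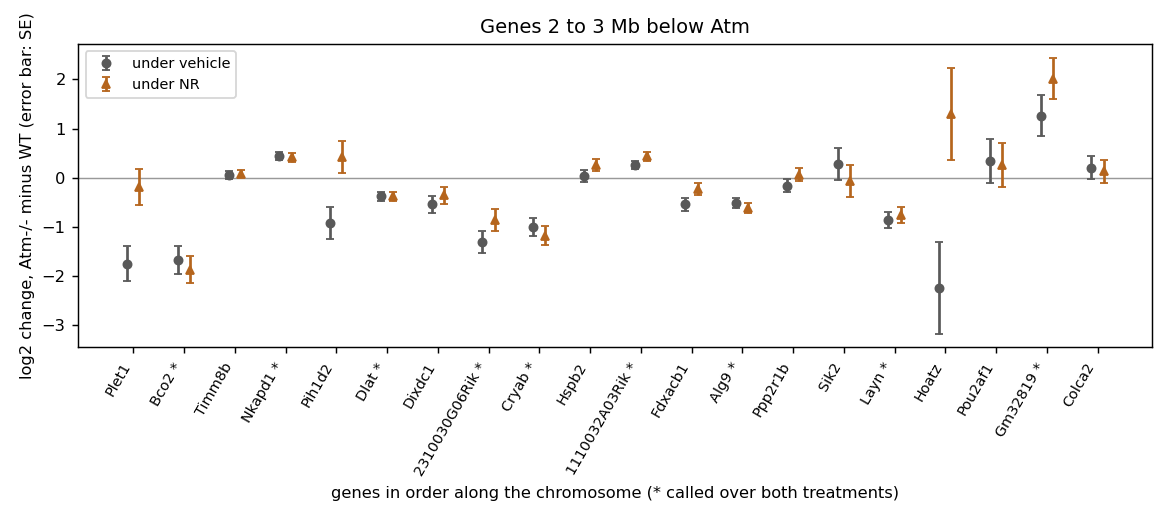
Log2 genotype change with its SE (vertical axis) of the 20 measured genes 2 to 3 Mb below Atm, in order along the chromosome (horizontal axis), under vehicle (circles) and NR (triangles). Stars mark the 9 genes called over both treatments, for which the called probe is shown. Higher, lower and little changed genes alternate, and Hoatz, Plet1 and Pih1d2 have values under vehicle and NR that lie far apart.

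Elsewhere below Atm, 4 genes were called over both treatments. Gm5617, 4.94 Mb away, read 11.11 to 11.99 in WT veh, 12.18 to 12.23 in Atm-/- veh, 11.32 to 11.51 in WT NR and 12.02 to 12.25 in Atm-/- NR, with all 8 Atm-/- arrays above all 8 WT arrays and a change of 0.71 ± 0.10 (SE, limma adjusted p = 0.00576). Ube4a, a ubiquitin ligase that extends ubiquitin chains, lies 8.51 Mb away and fell by 0.53 on the log2 scale (SE 0.08, limma adjusted p = 0.0124). Its arrays did not overlap within either treatment, at 11.57 to 11.95 in WT veh, 11.10 to 11.38 in Atm-/- veh, 11.79 to 12.18 in WT NR and 11.25 to 11.62 in Atm-/- NR. Scn4b, the beta-4 subunit of voltage-gated sodium channels, had -0.50 ± 0.09 (SE, limma adjusted p = 0.0494), but 1 WT veh array lay inside the Atm-/- veh range and the call was lost in 17 of 23 other settings. Rnf214, a RING finger gene, had -0.48 ± 0.08 (SE, limma adjusted p = 0.0202) on 1 probe and 0.05 ± 0.07 on its brighter probe, and lost its call in 8 of 23 settings.

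Above Atm, 5 genes were called over both treatments, spread from 1.26 to 7.09 Mb. Dnaja4 (chr9:54698848-54716317), a co-chaperone of heat shock protein 70, was the nearest called gene outside those set apart. It read 13.19, 13.43, 13.28 and 13.42 in WT veh and 12.52, 12.72, 12.58 and 12.41 in Atm-/- veh. With NR it was 13.27, 13.57, 13.45 and 13.40 in WT NR and 12.94, 13.09, 13.10 and 12.83 in Atm-/- NR. All Atm-/- arrays were below all WT arrays, with a change of -0.77 ± 0.10 (SE, limma adjusted p = 0.00403) under vehicle, -0.43 ± 0.10 under NR and -0.60 ± 0.07 (SE, limma adjusted p = 0.000766) over both. Its other probe had a change of -0.42 ± 0.09 over both (limma adjusted p = 0.10). In Atm-/- mice the brighter probe rose with NR by 0.43 ± 0.10 (limma adjusted p = 0.0177), while the difference between both genotype changes was not called (limma adjusted p = 0.839).

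Ppcdc (chr9:57385095-57440157), an enzyme of coenzyme A synthesis, had the smallest adjusted p of these genes. It read 11.41, 11.35, 10.86 and 10.93 in WT veh and 11.73, 11.75, 11.68 and 11.83 in Atm-/- veh. Under NR the log2 signal was 10.82, 10.92, 11.01 and 10.92 in WT NR and 12.01, 12.05, 11.82 and 11.89 in Atm-/- NR. Every Atm-/- array was above every WT array, 1.76-fold over both treatments, a log2 change of 0.82 ± 0.08 (SE, limma adjusted p = 0.000247). Its neighbour 1700017B05Rik also rose, with 0.75 ± 0.12 (SE, limma adjusted p = 0.0148) and arrays apart within each treatment.

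Cd276 (chr9:58524300-58555033) encodes the immune checkpoint molecule B7-H3. Its signal was 8.68, 8.74, 8.95 and 9.20 in WT veh and 7.82, 8.12, 7.90 and 7.95 in Atm-/- veh. Under NR it was 9.35, 9.44, 9.36 and 8.76 in WT NR and 8.49, 8.12, 8.36 and 8.26 in Atm-/- NR. The change was -0.94 ± 0.15 under vehicle and -0.92 ± 0.15 under NR, and -0.93 ± 0.11 (SE, limma adjusted p = 0.00104) over both, with no overlap between genotypes. The lncRNA gene 9230112J17Rik (chr9:60523967-60545882) read 7.61, 8.01, 7.79 and 8.24 in WT veh and 6.76, 7.14, 6.74 and 6.79 in Atm-/- veh. In the NR groups its values were 8.36, 7.76, 8.39 and 8.13 in WT NR and 7.07, 7.29, 7.22 and 7.16 in Atm-/- NR. It was the only one of these genes called under vehicle, with -1.06 ± 0.16 (SE, limma adjusted p = 0.0223), and again under NR, with -0.97 ± 0.16 (SE, limma adjusted p = 0.047). It fell 2.02-fold over both treatments.

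**Figure D4:**
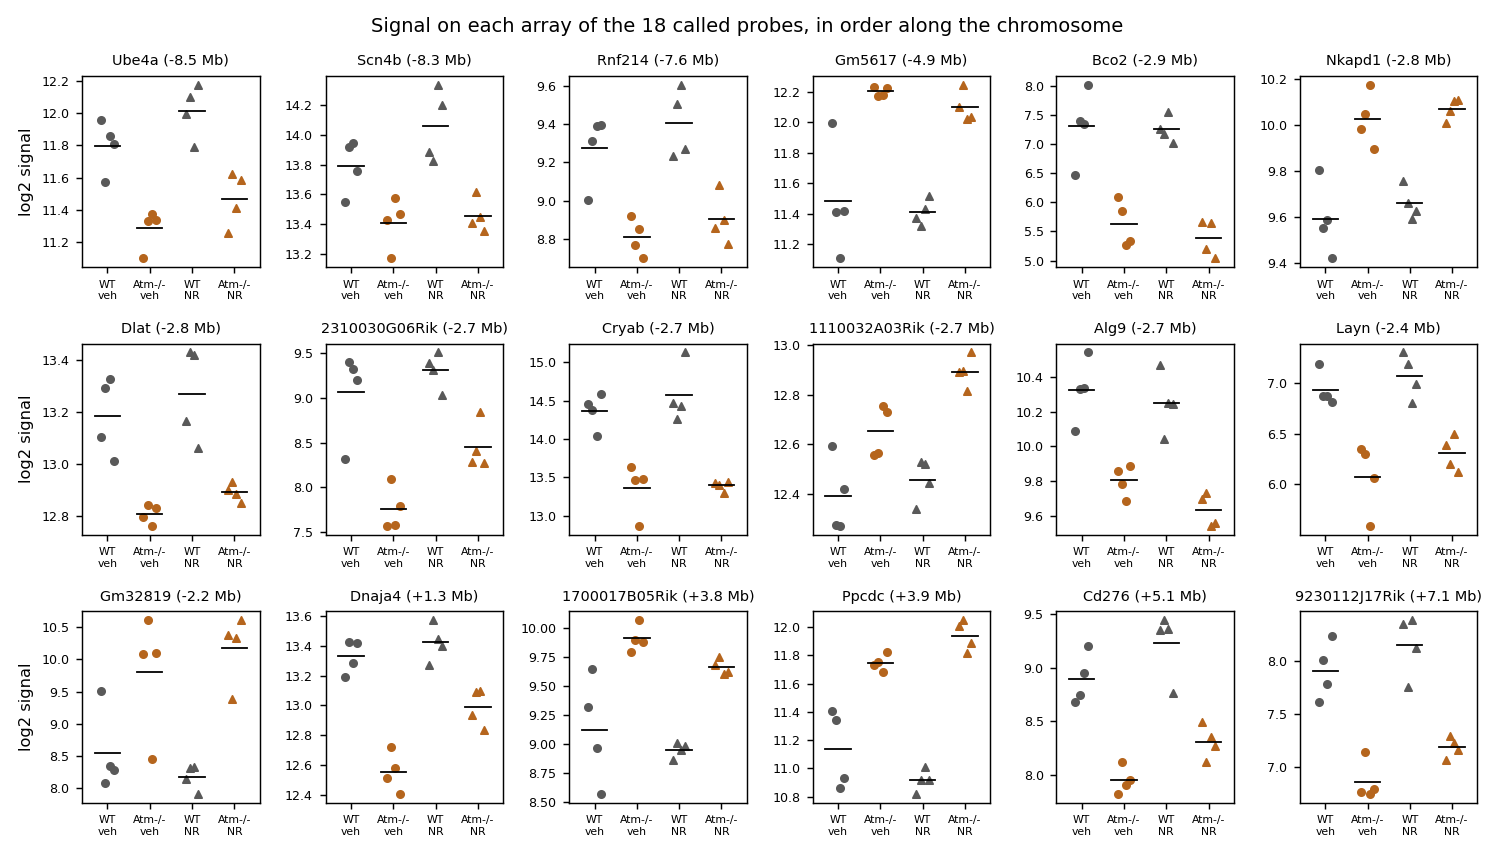
Log2 signal on each of the 16 arrays (points, with circles for vehicle and triangles for NR) and group means (bars) of the 18 probes called over both treatments, in order along the chromosome, with the distance from Atm in Mb. Each panel has its own axis, which does not start at 0. Most panels have no overlap between genotypes in either treatment, and Gm32819, Scn4b and 1110032A03Rik overlap under vehicle.

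Another 4 genes were not called, though their Atm-/- and WT arrays did not overlap under vehicle or under NR and differed the same way. All 4 were higher in Atm-/- on their brightest probe. Rexo2, a nuclease that degrades short RNA in mitochondria, had 0.36 ± 0.07 (SE, limma adjusted p = 0.0569). It lies near Gm5617, with another measured gene between them. Adpgk, an ADP-dependent glucokinase, had 0.22 ± 0.05 (SE, limma adjusted p = 0.0685), Tle3, a transcriptional corepressor, 0.25 ± 0.08 (SE, limma adjusted p = 0.203), and Rplp1, a protein of the ribosomal stalk, 0.20 ± 0.05 (SE, limma adjusted p = 0.117). The other kept probe of Tle3 went the other way, with a change of -0.14.

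The genotype changes under vehicle and under NR come from different mice and share no array, though they share both slides. Their sign was the same in 134 of 198 genes (67.7%), against 56.6% of all 16737 genes and 58.1% of the 575 genes in the rest of chromosome 9. Across the 198 genes, Pearson r was 0.42 and Spearman rho 0.53, against 0.16 and 0.21 across all named genes. Within 2 Mb of Atm the sign was shared by 16 of 29 genes (55.2%), and at 2 to 5 Mb below Atm by 24 of 32 (75%). The difference between both genotype changes was called by limma in 0 of 285 probes, with a background of 0.0% and 14 probes at an unadjusted p under 0.05 (4.91%, against 5.27% of all probes). Its smallest adjusted p was 0.839.

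**Figure D5:**
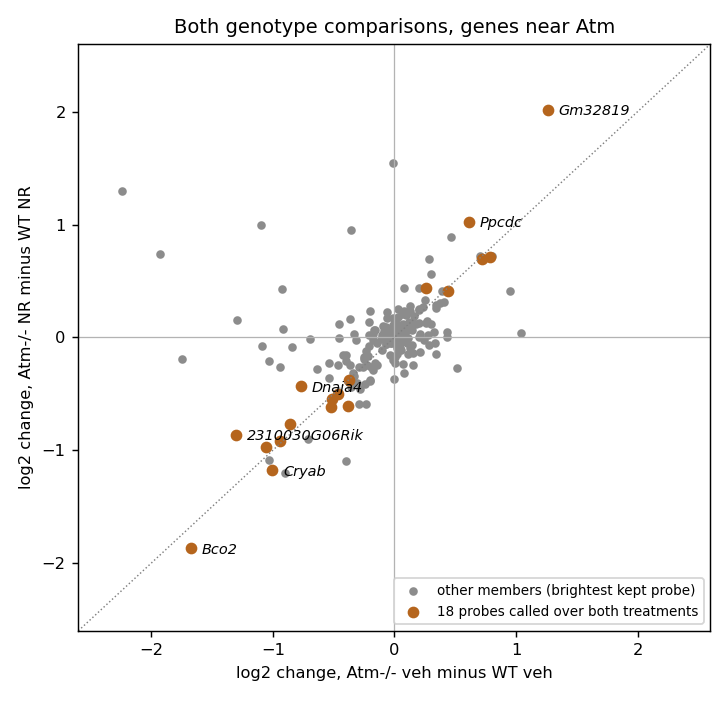
Log2 genotype change under NR (vertical axis) against that under vehicle (horizontal axis) in genes within 10 Mb of Atm, with the 18 called probes coloured and a dotted line of equal change. The called probes are all lower under both or higher under both, but they were called on the mean of both changes, which favours a shared sign. Some of them, such as Gm32819, 2310030G06Rik and Dnaja4, lie off the line.

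Grouped by role, the called genes found in the lists were scattered over them, while several called genes, Dnaja4 among them, were in no list. The lists were written with earlier results of these data known. Beside the median change of -0.01 over all named genes, the 17 cell adhesion and axon guidance genes had a median log2 change of -0.19 over both treatments, with 4 positive, 13 negative, 0 of 23 probes called by limma and 8 at an unadjusted p under 0.05. Over all probes, 0.201% were called and 12.9% had an unadjusted p under 0.05. Over the 285 kept probes of the genes near Atm, these shares were 6.32% and 34.4%. The largest were Mpzl2, a junction adhesion gene (-1.06 ± 0.25), the integrin subunit Itga11 (-0.60 ± 0.27), Islr2 (-0.58 ± 0.35) and Jaml (-0.44 ± 0.16), and the limma adjusted p of Mpzl2 was 0.128. Of 18 genes of mitochondrial and intermediary metabolism, 1 rose (Ppcdc) and 2 fell (Bco2 and Dlat), with a median of 0.02, and the glycolytic enzyme Pkm had -0.41 ± 0.11. Nnmt, which methylates nicotinamide, had -0.42 ± 0.31 (limma adjusted p = 0.583).

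Of 11 measured receptor, channel and synaptic vesicle genes, 1 fell (Scn4b), 7 changes were positive and 4 negative, and the median was 0.11. This is 1 of 12 probes called, beside 0.201% of all probes and 6.32% of the 285 kept probes near Atm. The pump regulator Fxyd2 had 0.49 ± 0.34 and the dopamine receptor gene Drd2 -0.36 ± 0.42. Of 14 ubiquitin and proteasome genes, 2 fell (Ube4a and Rnf214), with a median of -0.02. Cbl, a ubiquitin ligase of receptor kinases, had -0.34 ± 0.11, Arih1 -0.23 ± 0.08 and the deneddylase gene Senp8 -0.23 ± 0.11. Of 11 chaperone and secretory genes, 2 fell (Cryab and Alg9) and the median was -0.12, with -0.33 ± 0.09 for the vesicle tether Trappc4 and -0.30 ± 0.07 for the calcium-binding Rcn2. This list leaves out the co-chaperone gene Dnaja4, which was also called and lower.

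Of 18 genes of transcription, chromatin, RNA and repair, 0 of 30 probes were called by limma and 8 had an unadjusted p under 0.05 (median change 0.05), beside 0.201% and 12.9% of all probes. The shares over the 285 kept probes near Atm were 6.32% and 34.4%. Zbtb16, a zinc finger repressor, had 0.76 ± 0.32, the splicing factor gene Celf6 -0.47 ± 0.30 and the glycosylase gene Neil1 0.29 ± 0.11. Of 9 kinase and phosphatase genes, 0 of 16 probes were called and 4 had an unadjusted p under 0.05 (median change -0.04), with 0.54 ± 0.34 for Ulk3, -0.19 ± 0.06 for Ptpn9, -0.11 ± 0.06 for Peak1 and 0.11 ± 0.23 for Sik2. Of 5 measured immune cell genes Cd276 fell, and the median was -0.05, with -0.46 ± 0.35 for Pstpip1, 0.30 ± 0.32 for Pou2af1 and 0.12 ± 0.25 for the T cell receptor component Cd3d. Apoc3 (0.26 ± 0.13) was the only measured apolipoprotein gene of 4, and Cyp11a1 (-0.36 ± 0.29) the only cytochrome P450 gene of 4.

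For NR, the share of these probes called lay near the background. In Atm-/- mice, 32 of 285 probes of 30 genes were called by limma in NR against vehicle (11.2%, background 9.04%), of which 12 rose and 20 fell. In WT mice 0 were called (background 0.0%), with 21 probes at an unadjusted p under 0.05 (7.37%, against 7.62% of all probes) and a smallest adjusted p of 0.406. The largest changes in Atm-/- mice, chosen after their values were seen, were rises of Htr3a, a serotonin-gated channel (2.02 ± 0.60, limma adjusted p = 0.0495), Plet1 (1.40 ± 0.36, limma adjusted p = 0.0302) and the nicotinic receptor subunit Chrnb4 (1.30 ± 0.30, limma adjusted p = 0.021). Chrnb4 read 7.98, 8.0, 6.83 and 7.90 in Atm-/- veh and 8.60, 8.92, 9.84 and 8.53 in Atm-/- NR, and in WT mice it had 1.01 ± 0.30 (limma adjusted p = 0.501). Poglut3 (0.46 ± 0.12), the measured gene whose lower coordinate is nearest to that of Atm, was also among those that rose. The count of 32 rested on single arrays: it was 6 without Atm-/- veh 1, 8 without Atm-/- veh 4, 21 without Atm-/- NR 1, 12 without Atm-/- NR 2, 3 without Atm-/- NR 3 and 14 without Atm-/- NR 4. Probes well above background numbered 39134 to 41905 on Atm-/- veh arrays and 34945 to 37817 on Atm-/- NR arrays. In WT the ranges overlapped, with 37843 to 42559 under vehicle and 36402 to 40010 under NR. The part of this difference in the calls was not tested.

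At the ends of the window, Gm36855, 9.93 Mb below Atm and the first gene inside, had a log2 genotype change of -0.02 ± 0.09 over both treatments, and Trim29, 10.1 Mb below and just outside, 0.04. Iqch, the last gene inside above Atm, had no kept probe, and Aagab, 10.2 Mb above and just outside, had 0.18 on its brightest probe. Of the 62 genes with more than 1 kept probe, 30 had probes with changes in both directions. The 4 kept probes of Arih1 ranged from -0.23 to 0.59 and the 3 of Sik2 from -0.42 to 0.11. Of the 18 called genes, 14 had a single kept probe, and in 2 of the other 4 (Nkapd1 and Dnaja4) all probes went the same way.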

How the data were processed

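RNA of cerebellar cortex from 16 mice was hybridised to 16 Agilent arrays of 1 colour (Cy3). The authors deposited 1 scanner output per mouse (Feature Extraction 12.0.3.1), with the intensity of 62976 spots, background-subtracted and detrended but not normalized across mice. Their deposited z-scores are a score for each spot, quantile normalized and scaled within each array per the methods, and served only as an alternative. Groups, ages and doses were taken from the labels.

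Probes were named by matching their accessions to RefSeq genes (GRCm38.p6), and 32994 of 56605 had a match. The design of the array used build mm9, so positions are those of the RefSeq genes and not of the probes. Distance is the start of a gene minus the start of Atm, and a gene with a smaller coordinate is called below Atm. For distances, the start is the lower coordinate of a gene, whatever its strand. Detection meant a share of 0.5 or more of the spots of a probe well above background, and the filter asked for detection in every mouse of 1 group or more. The log2 intensity was quantile normalized, spots marked as outliers were left out, spots of 1 probe were averaged, and of 38041 probes the 37253 with a value on all arrays were kept. A value called log2 signal is on this scale, and levels of different probes are not compared. The number of arrays limits the precision.

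Differences were tested with limma 3.58.1 (R 4.3.3) from 1 model of 4 group means on the 16 arrays, with 12 residual degrees of freedom and Benjamini-Hochberg adjustment over all kept probes. The fit was tested on simulated data. One of the marker genes listed for oligodendrocytes is not reported here. Replicate numbers did not pair the arrays (median correlation of same-numbered arrays -0.02 over 24 pairs). The p-values weigh each difference against the spread between mice of the same group. A difference between slides is part of the genotype change and is not covered by that spread. The genes and gene lists were chosen with earlier results of these data known. Named were every gene called for genotype, the 5 measured genes nearest to Atm on each side, uncalled genes whose arrays did not overlap the same way in both treatments, up to 4 genes of each list by size of change, and the genes at the ends of the window. Outside this rule, Htr3a, Chrnb4, Plet1, Hspb2, Timm8b, Dixdc1, Fdxacb1, Ppp2r1b, Pih1d2, Hoatz and Colca2 were named after their values were seen. Alternatives were other scaling, background correction and filters, the z-scores, each array left out in turn, a replicate block, the arrays of the compared groups alone, arrays with signal of Y-linked genes alone, the methods' t-test, the mean over probes of a gene and the set-apart genes added back.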

Additional observations from a re-analysis of the deposited data

Results flagged for a closer look

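Among 32 named genes, 128 groups of 4 arrays were searched for 1 array far from the other 3, by the gap to the nearest array as a share of the range of the group. Chance gives such a flag in about 1 in 20 groups, and 7 were found, each given with its share. Cd276 was low on WT NR 4 (0.861, log2 signal 8.76 against a median of 9.36), which is 1 of the arrays without signal of Y-linked genes. Poglut3 was high on WT NR 3 (0.939, 8.31 against 7.85), and Sln was low on the same array (0.937, 8.58 against 9.87). Layn was high on WT veh 1 (0.844, 7.19 against 6.87), 9230112J17Rik high on Atm-/- veh 2 (0.885, 7.14 against 6.76), Ube4a low on Atm-/- veh 1 (0.844, 11.10 against 11.34) and Rplp1 high on Atm-/- veh 3 (0.948, 16.68 against 16.59).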

How the results depend on the processing

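Called genes kept their direction in all 23 settings that refit them, or 22 for Bco2. All 18 probes called over both treatments passed again with scaling to the 75th percentile, with normexp (where the changes of Bco2 and Layn were -0.93 and -0.42 in place of -1.77 and -0.81) and with the z-scores, 14 passed without the filter on dim probes, 15 with the replicate block, and 17 of 17 among probes detected on all 16 arrays. Cryab, Cd276, Dnaja4 and Ppcdc passed in all 23 settings, while Scn4b, 1110032A03Rik, Gm32819, Dlat and Rnf214 failed in 17, 16, 16, 14 and 8 of them.

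The count of probes called over both treatments was 4 in place of 18 on the 12 arrays with signal of Y-linked genes. On these arrays it was 1 in place of 3 under vehicle, 0 in place of 4 under NR and 4 in place of 32 for NR in Atm-/-, and 29 in place of 17 genes did not overlap in both treatments, with groups of fewer arrays. With the replicate block, 1 probe was called under vehicle and 2 under NR, against 16 over both treatments and 26 for NR in Atm-/-. Only the arrays of the compared groups gave 0 under vehicle, and no filter on dim probes gave 2 under NR. The methods' t-test passed 67 probes under vehicle and 72 under NR at their threshold, and 0 and 2 after Benjamini-Hochberg adjustment. With the set-apart genes other than Atm added back, 26 of 210 genes did not overlap in both treatments. Leaving out 1 array at a time gave counts of 1 to 8 under vehicle, 1 to 6 under NR, 13 to 19 over both treatments, 3 to 38 for NR in Atm-/- and 17 to 24 genes that did not overlap in both treatments. The cause of these shifts was not tested.

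Among genes that were not called, the sign of values near 0 turned. Rdx had 0.0290 with normexp and ranged from -0.0374 to 0.0235 as single arrays were left out. Exph5 had 0.0180 with scaling to the 75th percentile and 0.0495 on arrays with Y-linked signal, and ranged from -0.176 to 0.0416. Gm1715 had -0.0388 and Acat1 -0.00883 on arrays with Y-linked signal. Cul5 ranged from -0.0359 to 0.00645 and Poglut3 from -0.0820 to 0.0235. The slide could not be a block, since each slide holds 1 genotype.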
